A study of Homo sapiens with 4 samples.

Results

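The ADAM and ADAMTS proteases were compared between MDA-MB-231 cells transfected with a FOXC1 plasmid and MDA-MB-231 cells transfected with the vector. Members were the probe sets annotated with a single symbol that is ADAM or ADAMTS and a number, ADAMTSL or ADAMDEC, with pseudogenes left out and the brightest probe set taken per gene. This gave 42 genes of 18417 genes with a probe set of their own: 19 ADAM genes, ADAMDEC1, 17 ADAMTS genes and 5 ADAMTS-like genes. The pseudogenes left out were ADAM3A, ADAM5, ADAM6 and ADAM20P1.

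MDA-MB-231 is an established line of basal-like, mesenchymal character from a human breast carcinoma, and FOXC1 is a forkhead transcription factor. Both groups grew in the same medium, with serum at 10%, and received their plasmid with the same lipid reagent, so that the FOXC1 insert is the only difference the labels give. There were 2 FOXC1 and 2 vector arrays, 4 in all, of the Affymetrix whole-transcript type, and the labels name the 2 of each group as biological replicates. The labels do not say whether the samples came from separate transfections, pools or clones. SEs, intervals and p-values measure only spread between these 4 arrays. For each gene, limma took most of that spread from other probe sets of similar signal (18.1 prior against 2 residual degrees of freedom).

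Signals are PLIER values, a linear probe set summary in which 0 is the floor. Folds and log2 changes are FOXC1 over vector on the scale of log2(signal + 16), tested with limma over all 21214 named probe sets at a Benjamini-Hochberg adjusted p of 0.05. Array medians over all probe sets were 499 and 512 in FOXC1 and 492 and 489 in vector cells. Over the named probe sets they went the other way, with 776 and 769 in FOXC1 and 788 and 783 in vector cells. The median log2 change over all genes was 0.03. The transfected gene was not analysed here, so the group labels were not checked against it. Vimentin, CD44, EGFR, caveolin 1 and moesin, markers of this line, were all above the limit of brightness defined below. They summed to 54686 and 55579 in FOXC1 and 56255 and 56612 in vector arrays, a sum that joins changes in both directions. CD44 (log2 0.23) and EGFR (log2 0.20) rose, while caveolin 1 (log2 -0.28), moesin (log2 -0.12) and vimentin (log2 -0.06) fell. Among 5 epithelial markers 4 fell (EPCAM, KRT8, KRT18 and KRT19), and their summed signal was 20118 and 19777 in FOXC1 against 23584 and 24056 in vector arrays. In a bulk sample fewer cells of a type and less RNA per cell cannot be told apart. Summed signals were 1826 and 1897 in FOXC1 against 1833 and 1780 in vector arrays for 6 fibroblast markers, and 1113 and 1131 against 991 and 1138 for 4 leukocyte markers. They were 1696 and 1673 against 2130 and 2424 for 4 endothelial markers, where PECAM1 alone fell, and 1674 and 1673 against 2045 and 2088 for 5 luminal markers, where GATA3 and FOXA1 fell. DCN rose among the fibroblast and PTPRC among the leukocyte markers, both dim. The part of these markers in the results below was not tested.

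ADAM proteins are membrane-anchored proteins with a metalloprotease and a disintegrin domain. Those with an intact active site cut the ectodomains of growth factors, cytokines, receptors and adhesion proteins from the cell surface, and the others act as adhesion proteins or receptors. ADAMTS proteins are secreted relatives that carry thrombospondin type 1 repeats and cut matrix proteoglycans, procollagens and plasma proteins. ADAMTS-like proteins keep the repeats but lack the protease domain, and several of them bind fibrillin microfibrils.

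Of the 42 members, 15 passed the test, 8 lower and 7 higher in FOXC1 cells. The count called higher was 3 with vector replicate 1 left out and 4 with vector replicate 2 left out, while the count called lower was 8 in both. The 15 genes are 35.7% of the members, against 31.4% of all genes, so that as a family they were called about as often as the background. By direction, 15.9% of all genes were called higher and 15.5% lower. Log2 changes ran from -2.24 to -0.21 among the members called lower and from 0.20 to 0.57 among those called higher, so that the sizes overlapped and only the falls of ADAMTS12, ADAM8 and ADAMTS3 were larger than every rise. Changes of at least 2-fold were found in ADAMTS12 and ADAM8, both lower, while 0.961% of all genes passed with a change of that size. The median log2 change of the 42 members was 0.05, beside 0.03 over all genes, and their median absolute change was 0.14, beside 0.11 over all genes. In the 15 genes called, the FOXC1 and vector arrays did not overlap, and they did not overlap in 10 of the 27 others. Over all genes, 63.5% had groups that did not overlap.

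**Figure D1:**
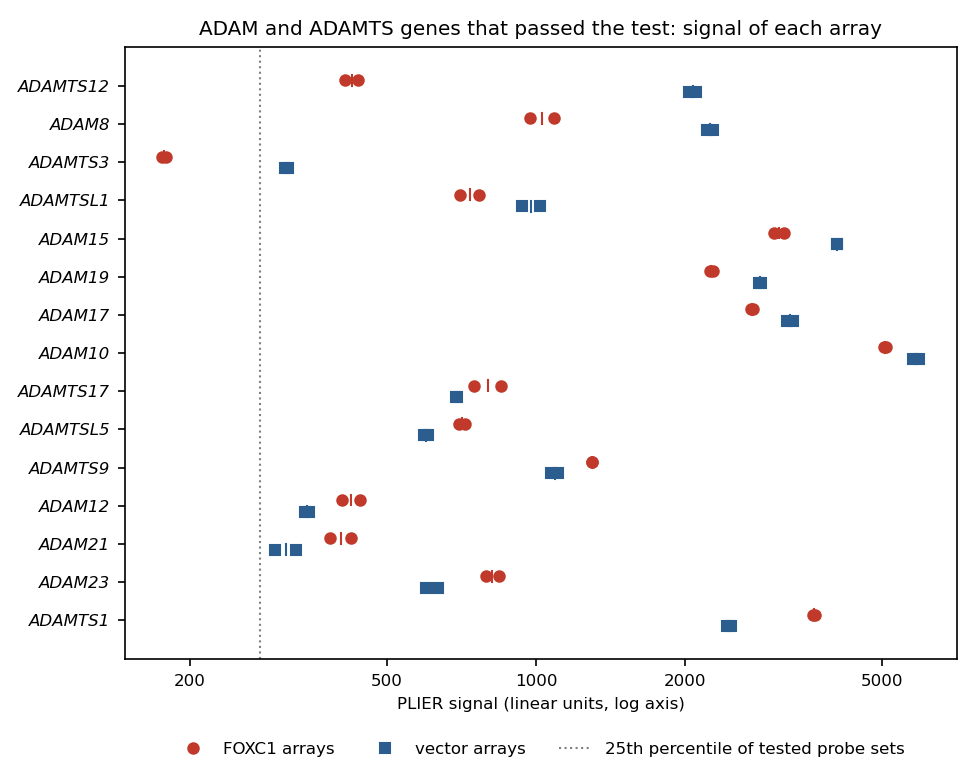
PLIER signal on each array (x axis, log scale) of the 15 family members that passed the test, ordered by log2 change with the largest fall on top. Circles are the 2 FOXC1 arrays, squares the 2 vector arrays, short vertical lines the group means, and the dotted line is the limit of brightness at a signal of 277. The groups of ADAMTS12 lie farthest apart, with about 424 in FOXC1 and 2070 in vector cells.

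A member is called dim here where its higher group mean lay below the 25th percentile of the mean signal of all named probe sets, a signal of 277. Of the members, 12 were dim and 30 were not. All 15 calls were among the 30, which is 50.0% of them, beside 38.9% of all genes above the same limit. ADAMTS3 stands among the 30 through its vector signal. The limit is a rank across probe sets of unlike sequence and is no detection call.

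The 2 members with the largest changes, and the single member of those in the promoter table with a forkhead motif, are shown with the 250 bases before the start of their transcripts in RefSeq on GRCh38.p14. Capitals mark the motifs found. The motifs searched on both strands were the forkhead letters GTAAACA and GTAAATA, the AP-1 letters TGACTCA and the GC box GGGCGG, and none of the matches in these stretches overlap each other.
ADAMTS12 (chr5:33891991-33892240, minus strand): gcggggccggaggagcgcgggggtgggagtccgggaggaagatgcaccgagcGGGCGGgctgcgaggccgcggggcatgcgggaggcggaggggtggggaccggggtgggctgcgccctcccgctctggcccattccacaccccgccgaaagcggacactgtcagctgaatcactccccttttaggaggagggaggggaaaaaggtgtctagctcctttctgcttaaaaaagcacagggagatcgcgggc
ADAM8 (chr10:133276869-133277118, minus strand): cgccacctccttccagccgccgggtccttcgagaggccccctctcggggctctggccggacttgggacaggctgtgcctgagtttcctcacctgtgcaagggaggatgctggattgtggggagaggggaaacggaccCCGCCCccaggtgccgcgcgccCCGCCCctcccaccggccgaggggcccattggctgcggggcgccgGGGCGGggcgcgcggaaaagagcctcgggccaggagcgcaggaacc
ADAMTS13 (chr9:133422117-133422366, plus strand): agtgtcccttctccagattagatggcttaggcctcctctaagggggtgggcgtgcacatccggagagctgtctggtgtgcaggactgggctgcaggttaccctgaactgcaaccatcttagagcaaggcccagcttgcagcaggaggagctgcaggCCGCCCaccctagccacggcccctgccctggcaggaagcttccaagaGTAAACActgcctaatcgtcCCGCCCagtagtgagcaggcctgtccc

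The promoter table held 28 of the 42 members. GTAAACA stood in 1 of the 28, ADAMTS13, and in 2.98% of all 35116 promoters of the table, which include promoters of noncoding genes. GTAAATA and TGACTCA stood in 0 of the 28, against 2.39% and 4.2% of all promoters. GGGCGG stood in 21 of the 28 and in 42.6% of all promoters, with 1 match in the ADAMTS12 stretch, 3 in that of ADAM8 and 2 in that of ADAMTS13. ADAMTS13, the plasma protease that cuts von Willebrand factor, did not pass, with 692 and 797 in FOXC1 cells and 683 and 674 in vector cells (log2 0.13, 95% interval -0.02 to 0.28, limma adjusted p = 0.193). A match is a description of these letters, not a binding site, and sites outside the 250 bases were not searched.

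Among the 9 ADAM genes with an intact active site and expression outside the testis, 5 fell (ADAM8, ADAM10, ADAM15, ADAM17 and ADAM19), 1 rose (ADAM12) and ADAM9, ADAM28 and ADAM33 did not pass. These are 55.6% lower and 11.1% higher, beside 15.5% and 15.9% of all genes. Among genes above the limit of brightness, 19.4% were called each way. The median log2 change of the 9 was -0.21, beside 0.03 over all genes. ADAM8, a sheddase best known from leukocytes and also expressed in invasive carcinomas, had signals of 1086 and 971 in FOXC1 cells and 2215 and 2281 in vector cells. It fell 2.17-fold (log2 -1.12 ± 0.05 SE, limma adjusted p = 6.73e-13). Both FOXC1 arrays lay far below both vector arrays, and the log2 change stayed between -1.20 and -1.04 over all alternatives. The adjusted p of ADAM8 depended far more on the setting, and was 0.00202 in limma without a variance trend.

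The other falls of this group were smaller. ADAM15, whose disintegrin domain carries an integrin-binding RGD motif in human, had signals of 3174 and 3020 in FOXC1 cells and 4048 and 4049 in vector cells, and fell 1.31-fold (log2 -0.39 ± 0.04 SE, limma adjusted p = 2.51e-08). ADAM19, which cuts neuregulins, had 2275 and 2244 in FOXC1 cells and 2852 and 2820 in vector cells, and fell 1.25-fold (limma adjusted p = 9.64e-07). In each of these genes every FOXC1 array lay below every vector array.

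ADAM17 and ADAM10 are the main sheddases of most cells. ADAM17, the converting enzyme of TNF and of several EGFR ligands, had signals of 2743 and 2713 in FOXC1 cells and 3299 and 3215 in vector cells, a 1.19-fold fall (log2 -0.25 ± 0.04 SE, limma adjusted p = 1.25e-05). ADAM10, which makes the ligand-induced cut in Notch receptors and sheds cadherins, had 5081 and 5041 in FOXC1 cells and 5936 and 5770 in vector cells, a 1.16-fold fall (log2 -0.21 ± 0.03 SE, limma adjusted p = 9.58e-06). Both changes were small, and without a variance trend the limma adjusted p was 0.0231 for ADAM17 and 0.0362 for ADAM10. The groups did not overlap, as in all 15 members called and in 63.5% of all genes.

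ADAM12, which sheds HB-EGF and cuts insulin-like growth factor binding proteins, was the member of this group that rose, with signals of 405 and 440 in FOXC1 cells and 349 and 341 in vector cells (1.21-fold, log2 0.28 ± 0.08 SE, limma adjusted p = 0.0128). It did not pass once FOXC1 replicate 2 (log2 0.22, adjusted p = 0.0779), vector replicate 1 (log2 0.30, adjusted p = 0.0555) or vector replicate 2 (log2 0.26, adjusted p = 0.0971) was left out. It was also lost when all rows of the table were fitted (adjusted p = 0.0519). ADAM9, another widely expressed sheddase, had 9303 and 9188 in FOXC1 cells and 9417 and 9224 in vector cells. Its log2 change of -0.01 had a 95% interval of -0.06 to 0.04, the narrowest among the members. ADAM33, known from airway smooth muscle, had a log2 change of 0.01 (95% interval -0.12 to 0.14), and the dim ADAM28, known from lymphocytes, had -0.09 (95% interval -0.31 to 0.13).

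ADAM20, ADAM21 and ADAM30 keep the active site and are known as testis genes. ADAM21 rose, with 384 and 424 in FOXC1 cells and 298 and 327 in vector cells (1.28-fold, log2 0.35 ± 0.09 SE, limma adjusted p = 0.00361). It did not pass when vector replicate 1 was left out (log2 0.29, adjusted p = 0.0679). A second probe set, annotated to both ADAM21 and its near copy, the pseudogene ADAM21P1, had 573 and 538 in FOXC1 cells and 429 and 459 in vector cells and was also higher (1.24-fold, limma adjusted p = 0.00308). Which of these 2 loci gave the signal is uncertain. ADAM20 and ADAM30 were dim and did not pass (log2 0.15 and 0.20), and neither did ADAMDEC1, the decysin of gut macrophages (log2 0.16), which was dim too.

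Of the 3 ADAM proteins without an active site that bind LGI proteins in the nervous system, ADAM23 rose and ADAM11 and ADAM22 did not pass. ADAM23, also a ligand of an alpha v integrin, had signals of 842 and 791 in FOXC1 cells and 600 and 635 in vector cells, with both FOXC1 arrays above both vector arrays. It rose 1.31-fold (log2 0.39 ± 0.07 SE, limma adjusted p = 8.52e-05). ADAM11 had a log2 change of -0.08 (95% interval -0.25 to 0.08) and ADAM22 of -0.03 (95% interval -0.20 to 0.15). The sperm and testis genes ADAM2, ADAM18, ADAM29 and ADAM32 were all dim, with mean signals between 57.8 and 197, and 0 of the 4 passed. ADAM2, a sperm surface protein, had 69.8 and 70.8 in FOXC1 cells and 51.6 and 56.1 in vector cells. Its log2 change of 0.31 had an adjusted p of 0.0909 in limma, and it passed without a variance trend (adjusted p = 0.0233).

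**Figure D2:**
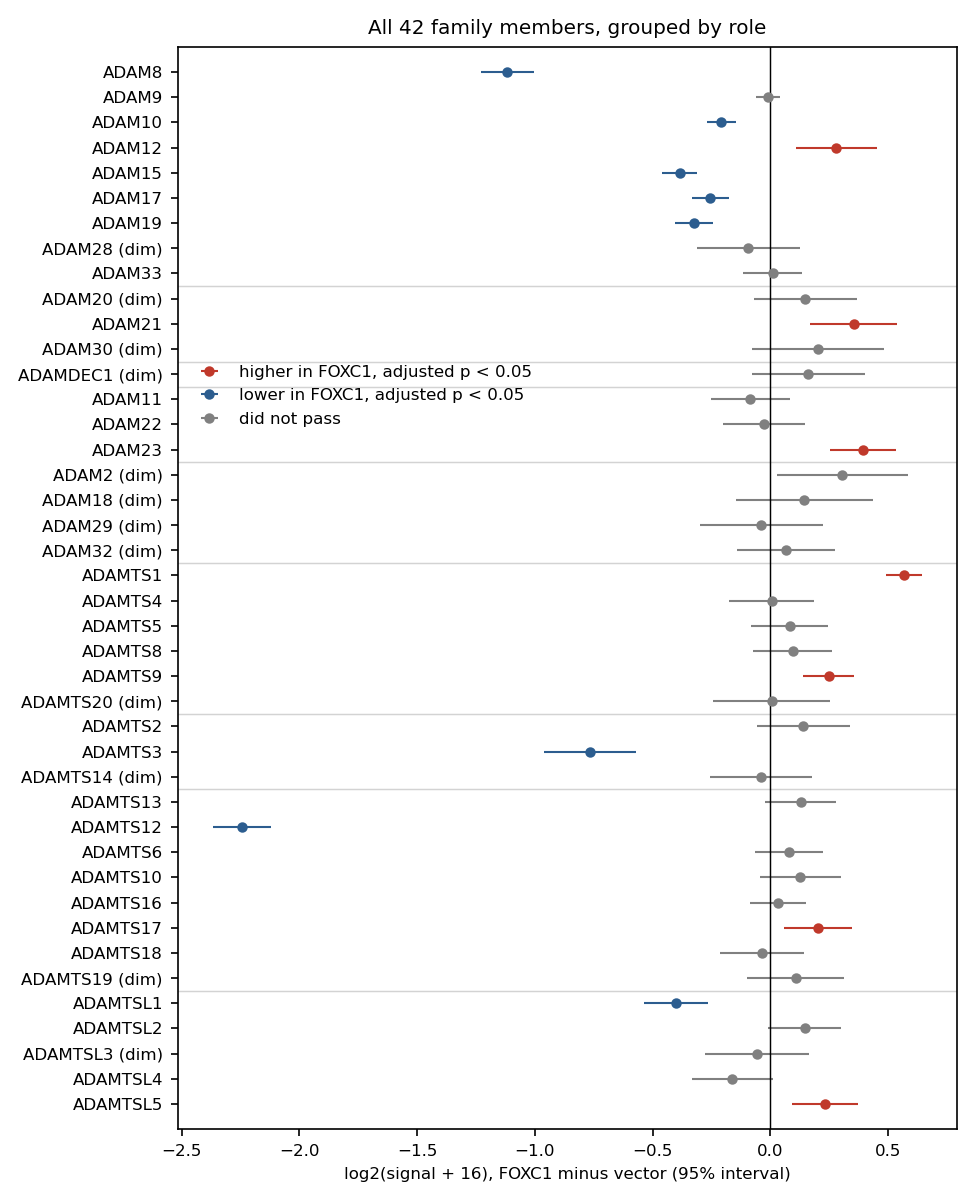
Log2 change of signal, FOXC1 minus vector, of all 42 members with its 95% interval from limma (x axis), one row per gene. Horizontal lines part the roles, from catalytic ADAM genes at the top through testis, LGI-binding and sperm ADAM genes to ADAMTS and ADAMTS-like genes. ADAMTS12 at -2.24 and ADAM8 at -1.12 stand farthest from 0, and all 12 dim members are grey.

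Of the 6 ADAMTS genes that cut aggrecan, versican or related proteoglycans, 2 rose (33.3%), 0 fell and 4 did not pass. Over all genes, 15.9% were called higher and 15.5% lower. ADAMTS1, which cuts versican and is known as an early response gene, had signals of 3622 and 3660 in FOXC1 cells and 2475 and 2433 in vector cells. Both FOXC1 arrays lay above both vector arrays, and the rise of 1.48-fold (log2 0.57 ± 0.04 SE, limma adjusted p = 8.14e-11) had the largest log2 change among the rises. ADAMTS9, a versican protease that can also act at the cell surface, had 1297 and 1299 in FOXC1 cells and 1109 and 1073 in vector cells, a 1.19-fold rise (log2 0.25 ± 0.05 SE, limma adjusted p = 0.00089).

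The aggrecanases of cartilage did not pass. ADAMTS4 had 350 and 391 in FOXC1 cells and 355 and 382 in vector cells (log2 0.01, 95% interval -0.17 to 0.19), and ADAMTS5 had a log2 change of 0.08 (95% interval -0.08 to 0.24). ADAMTS8 had 0.10 (95% interval -0.07 to 0.26) and the dim ADAMTS20 had 0.01. ADAMTS5 and ADAMTS1 are neighbours on chromosome 21, and the FOXC1 and vector arrays overlapped in ADAMTS5 while they lay apart in ADAMTS1.

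ADAMTS2, ADAMTS3 and ADAMTS14 remove the amino-terminal propeptide of fibrillar procollagens, and ADAMTS3 also activates the lymphatic growth factor VEGFC. ADAMTS3 had signals of 176 and 179 in FOXC1 cells and 315 and 311 in vector cells. It fell 1.70-fold (log2 -0.77 ± 0.09 SE, limma adjusted p = 1.57e-06), with FOXC1 signals below the limit of brightness and vector signals just above it. An offset of 1 gave a log2 change of -0.82 and one of 64 gave -0.64. ADAMTS2 (log2 0.14, 95% interval -0.06 to 0.34) and the dim ADAMTS14 (log2 -0.04) did not pass.

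ADAMTS12, which cuts cartilage oligomeric matrix protein, showed the largest change of the family. Its signals were 412 and 437 in FOXC1 cells and 2105 and 2036 in vector cells, or 424 ± 17.5 in FOXC1 and 2070 ± 49.0 in vector cells (SD, n = 2 each). It fell 4.74-fold (log2 -2.24 ± 0.06 SE, 95% interval -2.37 to -2.12, limma adjusted p = 2.15e-17). The gap between the groups was far wider than the spread within either, and the log2 change stayed between -2.29 and -2.13 over all alternatives. The adjusted p depended far more on the setting, and was 0.000237 in limma without a variance trend.

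ADAMTS17, one of the genes mutated in a Weill-Marchesani-like connective tissue syndrome, rose 1.15-fold, with 749 and 850 in FOXC1 cells and 692 and 689 in vector cells (log2 0.20 ± 0.07 SE, limma adjusted p = 0.0287). This call was lost without FOXC1 replicate 2 (log2 0.11, adjusted p = 0.246), with vector replicate 1 left out (adjusted p = 0.113) or vector replicate 2 (0.129), with no variance trend (0.121), with all rows fitted (0.103) and with centring on the median of all probe sets (0.0821). The remaining ADAMTS genes did not pass. Their log2 changes were 0.08 in ADAMTS6, 0.13 in ADAMTS10, 0.03 in ADAMTS16, -0.04 in ADAMTS18 and 0.11 in ADAMTS19, which was dim. ADAMTS13 passed without FOXC1 replicate 1 (log2 0.23, adjusted p = 0.0135).

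Of the 5 ADAMTS-like genes 1 fell and 1 rose (20% each), beside 15.5% lower and 15.9% higher over all genes. ADAMTSL1, also named punctin, had signals of 768 and 702 in FOXC1 cells and 1017 and 935 in vector cells, a 1.32-fold fall (log2 -0.40 ± 0.07 SE, limma adjusted p = 5.7e-05). A second probe set of ADAMTSL1, annotated to other transcripts in part, had 468 and 468 in FOXC1 cells and 455 and 485 in vector cells and did not pass (log2 -0.01, 95% interval -0.16 to 0.15). The fall therefore holds for 1 of its 2 probe sets, and with both averaged the log2 change was -0.20 (adjusted p = 0.0245).

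ADAMTSL5, a fibrillin-binding protein, rose 1.17-fold, with 698 and 718 in FOXC1 cells and 606 and 594 in vector cells (log2 0.23 ± 0.07 SE, limma adjusted p = 0.0105). With either vector array left out it no longer passed (adjusted p = 0.0624 without replicate 1 and 0.108 without replicate 2). ADAMTSL2 (log2 0.15), which passed without FOXC1 replicate 1 (log2 0.22, adjusted p = 0.0372), ADAMTSL4 (log2 -0.16) and the dim ADAMTSL3 (log2 -0.06) did not pass.

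The 27 members that did not pass had log2 changes between -0.16 and 0.31, of which 18 were above 0. For the 15 of them that were not dim, the 95% intervals lay between -0.33 and 0.34, and larger changes of these genes lie outside their intervals.

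To see whether a member moved with its surroundings on the chromosome, each was set beside the 5 measured genes on either side of it in RefSeq order. For the 15 members called, the median log2 change of the 10 neighbours lay between -0.09 and 0.12. Around ADAMTS12 on chromosome 5, 1 of 10 neighbours was called higher and 0 lower, with a median of 0.04, and around ADAM8 on chromosome 10, 3 were called higher and 0 lower, with a median of 0.05. The neighbours of ADAMTS3 had a median of 0.05 and those of ADAMTS1 of 0.05. Around ADAM10 and ADAM15, 4 of 10 neighbours each were called lower and 0 higher, with medians of -0.05 and -0.09, smaller than the falls of the members. Over all genes, 15.5% were called lower and 15.9% higher.

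**Figure D3:**
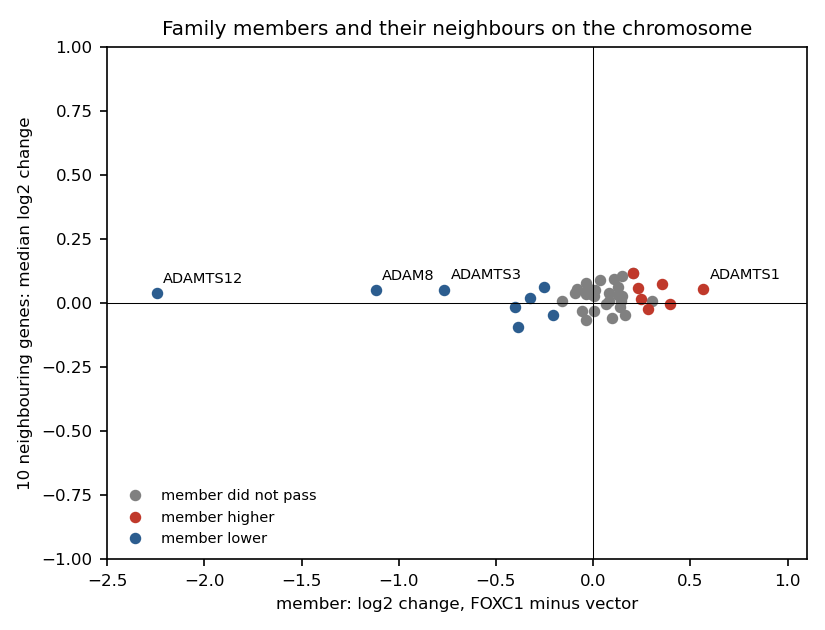
Log2 change of each of the 42 members (x axis) against the median log2 change of its 10 nearest measured genes (y axis), FOXC1 minus vector, coloured by the member's call. Neighbour medians of the called members stay between -0.09 and 0.12, while the members span -2.24 to 0.57.

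Genes that act with or on these proteases were taken from 9 lists with 126 genes, of which 122 were measured. Of the 122, 37 were called lower and 16 higher, or 30.3% and 13.1%, against 15.5% and 15.9% of all genes. Their median log2 change was 0.00. The lists chosen here include genes already seen to change in these arrays, so the counts are a description. The counts of each list below are to be read beside the same shares of all genes, 15.5% lower and 15.9% higher.

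The genes that bring ADAM17 and ADAM10 to the surface or activate ADAM proteins moved one way where they were called. Of 16 measured 8 fell and 0 rose, with a median log2 change of -0.11. The tetraspanin TSPAN15, a partner that directs ADAM10 in its cutting of N-cadherin, had signals of 1655 and 1513 in FOXC1 cells and 2894 and 2900 in vector cells (log2 -0.87 ± 0.05 SE, limma adjusted p = 3.37e-12). The proprotein convertase PCSK5 fell (log2 -0.55), as did SH3PXD2B, an invadopodium scaffold of the TKS family that binds ADAM tails (log2 -0.48). RHBDF2, one of the iRhom proteins that carry ADAM17 out of the endoplasmic reticulum, had 737 and 666 in FOXC1 cells and 960 and 910 in vector cells (log2 -0.41, limma adjusted p = 4.8e-05). FURIN, which cleaves the prodomain of most of these proteases, did not pass (log2 0.04).

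Genes that inhibit or clear these proteases also fell where called. Of 8 measured 6 fell and 0 rose, with a median log2 change of -0.38. TIMP3, the tissue inhibitor that acts on ADAM17 and on ADAMTS4 and ADAMTS5, had signals of 2878 and 2715 in FOXC1 cells and 7121 and 7331 in vector cells (log2 -1.36 ± 0.03 SE, limma adjusted p = 9.85e-18). TIMP4 fell with it (log2 -1.29), and smaller falls were found in LRP1, an endocytic receptor that clears ADAMTS4 and ADAMTS5 (log2 -0.45), and in the membrane inhibitor RECK (log2 -0.44). SFRP1 and A2M did not pass. Protease activity was not measured.

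Surface proteins cut by ADAMs moved in both directions. Among 7 EGFR ligands measured, TGFA (log2 -0.89), EREG (log2 -0.68) and NRG1 (log2 -0.27) fell and 0 rose, while HBEGF did not pass (log2 0.02). Of 9 Notch receptors and ligands, NOTCH2 fell (log2 -0.19), JAG1 rose (log2 0.14) and 7 did not pass. Of 24 adhesion and other surface proteins 10 fell and 4 rose: the adhesion molecule ICAM1 had the largest change (log2 1.89), L1CAM fell to 821 and 827 in FOXC1 cells, against 1643 and 1677 in vector cells (1.99-fold lower), and EFNB2 (log2 -0.85) and the phagocytic receptor MERTK (log2 -0.60) fell. Of 16 cytokines and receptors 4 fell and 3 rose, with the colony stimulating factor CSF1 lower (log2 -0.65), the NKG2D ligands MICA (log2 0.55) and MICB (log2 0.38) higher, and the TNF receptor TNFRSF1B lower (log2 -0.39).

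Of 23 matrix proteins that ADAMTS proteins cut or bind, 5 rose and 3 fell, beside 15.9% of all genes called higher and 15.5% lower. LTBP1, the latent TGF-beta binding protein, had signals of 1030 and 1002 in FOXC1 cells and 2211 and 2189 in vector cells (log2 -1.10 ± 0.05 SE, limma adjusted p = 1.09e-13). Fibrillin 1, FBN1, to which ADAMTS10 and ADAMTS-like proteins bind, had 1173 and 1126 in FOXC1 cells and 690 and 692 in vector cells (log2 0.72, limma adjusted p = 3.97e-09). Fibulin 1, FBLN1, a cofactor of ADAMTS1, fell (log2 -0.67), and the dim DCN rose (log2 0.63). Of 6 enzymes that glycosylate thrombospondin repeats DPY19L3 rose (log2 0.17) and DPY19L4 fell (log2 -0.27). Of 13 integrins and LGI ligands ITGAV (log2 0.15) and ITGB3 (log2 0.21) rose and ITGA6 fell (log2 -0.29), while the 4 LGI genes did not pass.

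**Figure D4:**
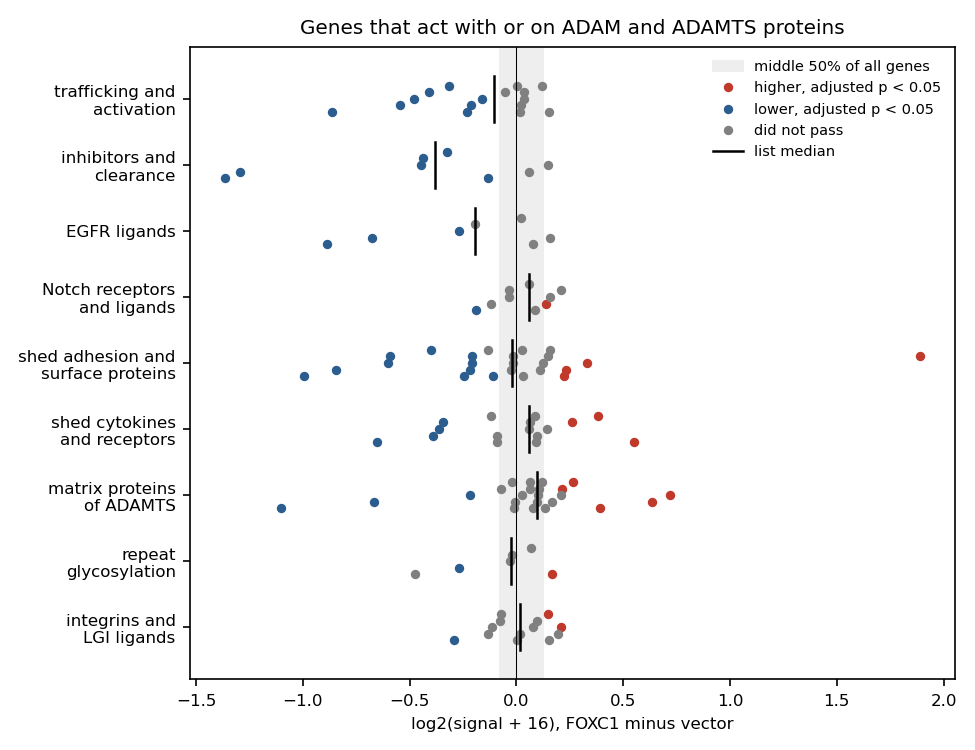
Log2 change of signal, FOXC1 minus vector (x axis), of the measured genes in 9 lists of partners, inhibitors and substrates, one point per gene and coloured by its call. Vertical bars are list medians, from -0.38 for inhibitors and clearance to 0.10 for matrix proteins, and the grey band spans the interquartile range of all genes.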

How the data were processed

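The authors summarised the arrays per gene with PLIER in Affymetrix Expression Console, per the submitters' processing notes and the labels. What they deposited is array intensity, linear. The sources used here do not give the background step, the normalization options or any version. PLIER signal can near 0, so 16 was added before log2, which shrinks the folds of dim genes. Groups and replicate numbers came from the labels. RNA input was 100 ng, and precision is limited by 2 arrays per group.

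Of 33297 probe sets, 19460 carried 1 gene symbol, 1754 several and 12083 none. The 21214 named ones entered 1 two-sided fit (R 4.3.3, limma 3.58.1, lmFit and trended eBayes, tested first on simulated data), with Benjamini-Hochberg adjustment over all of them. Probes can bind related transcripts.

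All 42 members are reported, those that passed with every array's value, and from each list up to 4 genes that passed by size of change, plus the uncalled FURIN, HBEGF, SFRP1 and A2M, named after their values were seen. Members and lists were chosen with earlier results of these data known. All members were matched to RefSeq, which also gave neighbours and promoters. Alternatives were 1 or 64 as the offset, signal above the 25th or 50th percentile only, quantile normalization, median centring, other variance moderation, the replicate block, leaving out each array, all rows, averaged probe sets and an adjusted p of 0.10. Centring on all probe sets was chosen after seeing the data.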

Additional observations from a re-analysis of the deposited data

How the results depend on the processing

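Of the 15 members called, 11 kept their call under all alternatives in which they were fitted (ADAMTS3 fell below both filters on signal), and 4 (ADAM12, ADAM21, ADAMTS17 and ADAMTSL5) lost it under at least 1. 0 members reversed, and ADAM2, ADAMTS13 and ADAMTSL2 were called under at least 1 alternative. The count called lower was 8 throughout, except 7 of 29 members left above the 25th percentile and 7 of 12 left above the 50th percentile of signal. The count called higher, 7 as reported, was 2 above the 50th percentile and between 3 and 9 with 1 array left out: 3 without vector replicate 1, 4 without vector replicate 2, 5 without FOXC1 replicate 2 and 9 without FOXC1 replicate 1. The members' median log2 change was -0.23 above the 50th percentile, where only 12 members remained, and 0.0075 with arrays centred on the median of all probe sets; with 1 array left out it lay between 0.02 and 0.07. Partner genes called higher numbered 10 without vector replicate 2.

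That centring, chosen after seeing the data, left 6 members higher and 8 lower, and moved the split over all genes to 1739 higher and 3396 lower, or 33.9% of calls higher. Centring on the median of the named probe sets gave 3758 higher and 2543 lower, against 2925 and 2852 as reported. Variance moderation without a trend called 1461 and 1790 genes, leaving out vector replicate 2 called 1913 genes higher, and 1858 were higher in a fit of all rows. The cause was not tested.

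With the replicate number as a block, 7 members were called higher and 8 lower. Deviations of arrays with the same number were not correlated between groups (correlation across probe sets -0.01). This value does not test for a pairing that moved only some probe sets. The labels do not say whether samples of the same number were handled together.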
